A study of Mus musculus with 16 samples.

Results

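The genes described here are 47 genes of mitosis and of the G2/M stage that leads into it, from the cyclins and kinases that start cell division to the kinesins and scaffold proteins that finish it. They were taken by symbol from a list of symbols, and a gene was kept if it had at least 10 counts in at least 4 libraries. The list was chosen with earlier results of these data known, so comparisons of its counts with shares over all genes are descriptive. All 47 were found among the 21965 genes of the table and all 47 were kept, with counts in a single library from 57 for Cdc25c to 3759 for Mki67. They were measured by RNA sequencing in RAW264.7, a mouse macrophage line that the labels describe as leukaemic and that divides continuously in culture. The 16 libraries formed 4 groups of 4: 50 µg/ml oxLDL, an oxidised low-density lipoprotein, together with 100 nmol/ml tirzepatide, tirzepatide alone at the same dose, oxLDL alone at the same dose, and vehicle, which was culture medium. The tirzepatide dose is given as the labels state it, although nmol/l may be meant. Tirzepatide is a synthetic peptide that acts on the GIP and GLP-1 receptors, and oxLDL is the modified lipoprotein that macrophages take up in atherosclerotic plaques. All groups were 1 cell line in the same culture medium with serum, no duration of treatment is stated, and the labels do not say whether the numbered libraries came from separate cultures, so each p-value covers no more than the spread among these libraries.

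A cell enters mitosis when the kinase CDK1, bound to cyclin B, becomes active, and it leaves mitosis when a ubiquitin ligase, the anaphase-promoting complex, destroys cyclin B and securin, the inhibitor of the protease that parts sister chromatids. Between these steps the Aurora and Polo kinases, the kinetochore, the spindle checkpoint and a set of kinesins build and read the spindle. The messages of these genes are low in resting cells and in early interphase and peak in G2 and mitosis, when the activators B-MYB and FOXM1 replace the DREAM repressor complex at a promoter motif called the CHR, next to CCAAT boxes that bind NF-Y. Division of macrophages within plaques is a known feature of atherosclerosis. In bulk RNA of this kind, more cells in G2 or mitosis and more message per cell cannot be told apart.

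Promoters are shown for the 4 genes with the smallest p for tirzepatide against vehicle and the 2 with the largest, among those with an entry, to set the sequence beside the change. Each is the 250 bases before the RefSeq transcription start in build GRCm38.p6, written 5′ to 3′ on the strand of the gene. Capitals mark CCAAT boxes (CCAAT or, on the other strand, ATTGG) and CHR motifs (TTTGAA, its reverse complement TTCAAA, and the palindrome TTCGAA). The first 4 belong to Ube2c (chr2:164769679-164769928 on the plus strand), Cdc20 (chr4:118437344-118437593 on the minus strand), Aurka (chr2:172370571-172370820 on the minus strand) and Top2a (chr11:99024190-99024439 on the minus strand). The last 2 belong to Racgap1 (chr15:99651657-99651906 on the minus strand) and Pttg1 (chr11:43425982-43426231 on the minus strand).

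Ube2c: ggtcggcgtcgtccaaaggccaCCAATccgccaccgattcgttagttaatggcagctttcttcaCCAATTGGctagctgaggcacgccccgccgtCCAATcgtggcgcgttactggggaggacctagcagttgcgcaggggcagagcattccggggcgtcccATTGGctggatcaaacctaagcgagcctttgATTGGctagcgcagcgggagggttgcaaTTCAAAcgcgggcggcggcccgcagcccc

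Cdc20: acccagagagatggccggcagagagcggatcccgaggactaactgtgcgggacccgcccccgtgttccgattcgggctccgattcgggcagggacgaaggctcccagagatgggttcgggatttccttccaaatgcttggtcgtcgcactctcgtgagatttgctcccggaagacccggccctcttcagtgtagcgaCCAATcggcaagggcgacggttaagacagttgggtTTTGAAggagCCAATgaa

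Aurka: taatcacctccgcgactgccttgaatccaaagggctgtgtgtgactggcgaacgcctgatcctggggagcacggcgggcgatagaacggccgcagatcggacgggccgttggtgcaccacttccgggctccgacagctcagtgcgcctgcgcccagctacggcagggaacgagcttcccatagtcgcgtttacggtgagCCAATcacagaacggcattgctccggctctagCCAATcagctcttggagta

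Top2a: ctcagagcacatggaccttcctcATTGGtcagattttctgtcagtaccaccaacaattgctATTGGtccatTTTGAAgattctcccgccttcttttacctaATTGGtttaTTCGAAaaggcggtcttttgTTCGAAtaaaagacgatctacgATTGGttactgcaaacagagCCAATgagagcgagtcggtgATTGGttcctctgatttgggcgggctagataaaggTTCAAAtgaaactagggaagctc

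Racgap1: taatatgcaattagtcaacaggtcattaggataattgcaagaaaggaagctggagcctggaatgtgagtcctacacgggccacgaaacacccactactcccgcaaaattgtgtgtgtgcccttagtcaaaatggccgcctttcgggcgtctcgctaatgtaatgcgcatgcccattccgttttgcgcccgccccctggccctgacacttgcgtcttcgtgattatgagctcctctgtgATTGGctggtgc

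Pttg1: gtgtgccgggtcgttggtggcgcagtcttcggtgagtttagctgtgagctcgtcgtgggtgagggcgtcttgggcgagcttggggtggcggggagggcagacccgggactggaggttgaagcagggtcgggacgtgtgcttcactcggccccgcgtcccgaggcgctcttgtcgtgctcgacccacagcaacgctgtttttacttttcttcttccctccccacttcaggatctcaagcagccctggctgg

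Ube2c and Top2a had 6 CCAAT boxes each, of which 1 pair in Ube2c overlapped, with 1 CHR motif in Ube2c and 4 in Top2a. Cdc20 had 2 CCAAT boxes and 1 CHR motif, and Aurka had 2 CCAAT boxes and 0 CHR motifs. Racgap1 had 1 CCAAT box and 0 CHR motifs, and Pttg1 had 0 of either. A match describes the letters and is neither a bound site nor a cause. Promoters were found for 39 of the 47 genes, as 41 promoters. Of these 41, 78.0% held a CCAAT box, against 61.1% of 36 promoters of DNA replication genes and 33.8% of all 32851 promoters in the table. At least 2 CCAAT boxes were present in 53.7%, against 27.8% of replication promoters and 10.1% of all promoters. A CHR motif was present in 36.6%, against 16.7% of replication promoters and 17.1% of all promoters. Both motifs were present in 31.7%, against 13.9% of replication promoters and 6.02% of all promoters. Among the 6 genes with a promoter that rose with tirzepatide, described next, all 6 had a CCAAT box and 4 had a CHR motif. Among the 33 that did not pass that test, 24 had a CCAAT box and 10 had a CHR motif. All of the 6 but Ube2c lost the call under some alternatives, and a link between these motifs and the size of the change was not tested.

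The libraries held 15877278 to 17336019 counts each, and the cells carried the macrophage markers: 10 of 12 were above 1 TPM in each group, with a summed level of 21448 to 23727 TPM in the combination, 20400 to 21295 TPM with tirzepatide, 21873 to 23187 TPM with oxLDL and 17120 to 18415 TPM with vehicle. TPM is a transcript level scaled for length and depth, as the authors deposited it. Markers of T and B cells summed to at most 0.801 TPM in any library. Vehicle libraries 1 and 2 stood apart by messages of pancreatic acinar cells: the 25 such genes in the table summed to 8.92 to 63.2 TPM in the combination, 8.85 to 69.0 TPM with tirzepatide, 7.43 to 41.6 TPM with oxLDL and 24.9 to 331 TPM with vehicle. The mitochondrial share of counts was highest in combination 1, at 10.53%, and in vehicle 1, at 11.17%, with 7.69% to 9.528% in the other libraries. The part of either in the results below was not tested beyond the fits given with them.

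The 47 genes were expressed at levels from 4.30 TPM for Cdc25c to 101 TPM for Ube2c, as means over the 16 libraries. Ube2c, the ubiquitin-conjugating enzyme of the anaphase-promoting complex, was followed by Cks2 (64.9 TPM), a small subunit of CDK complexes, Cdk1 itself (62.4 TPM) and Top2a (56.9 TPM), the topoisomerase that untangles sister chromatids. The lowest were Cdc25c, a phosphatase that activates CDK1, Melk (5.98 TPM), a kinase of dividing cells, and Kif4 (8.12 TPM), a chromosome-bound kinesin. Their summed level was 1239 to 1325 TPM in the combination, 1381 to 1463 TPM with tirzepatide, 1246 to 1368 TPM with oxLDL and 1227 to 1284 TPM with vehicle. In this sum all 4 tirzepatide libraries lay above the libraries of the 3 other groups. As a share of counts, tirzepatide 4, at 0.186%, lay below oxLDL 3 and oxLDL 4, at 0.190% and 0.188%, while tirzepatide 1, 2 and 3, at 0.198% to 0.207%, lay above all other libraries. The group mean was highest with tirzepatide for 36 of the 47 genes, with oxLDL for 5, in the combination for 3 and with vehicle for 3, and it was lowest with vehicle for 29.

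Tirzepatide alone was compared with vehicle first. Of the 47 genes 7 rose and 0 fell at an adjusted p under 0.05 by edgeR, where 4.08% of all 11319 genes tested were called, 2.34% higher and 1.74% lower. The 7 were Kif20a, Ube2c, Cdc20, Aurka, Top2a, Prc1 and Hmmr, and their changes were small, from 1.14-fold for Prc1 to 1.28-fold for Kif20a. Of the 47 genes 43 had a log2 change above 0, with a median of 0.17, against a median of -0.0001 over all genes tested. All 4 tirzepatide libraries lay above all 4 vehicle libraries in TPM for 19 of the 47 genes, where 7.29% of all genes did, and below them for 0, where 2.68% did. Over all genes TPM thus leaned higher with tirzepatide. The log2 changes from counts did not, with 5651 above 0 and 5668 below 0. At an unadjusted p under 0.05 by edgeR 22 were higher and 0 lower, where 9.58% and 8.98% of all genes were.

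The count of 7 rested on several libraries: it was 2 without vehicle 2 or without tirzepatide 3, and 3 without vehicle 3, vehicle 4, tirzepatide 1 or tirzepatide 2. It was 2 without vehicle libraries 1 and 2, 3 with the acinar share of counts in the model and 13 with the mitochondrial share, and between 39 and 45 of the 47 genes had a log2 change above 0 under each of the 29 alternatives. In each group libraries 1 and 2 had a higher mitochondrial share and a lower TMM factor, the scaling for library composition, than libraries 3 and 4. Within libraries 1 and 2 the median difference of the 47 genes in log2 CPM, tirzepatide minus vehicle, was 0.12, with 37 above 0, and within libraries 3 and 4 it was 0.19, with 40 above 0.

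**Figure D1:**
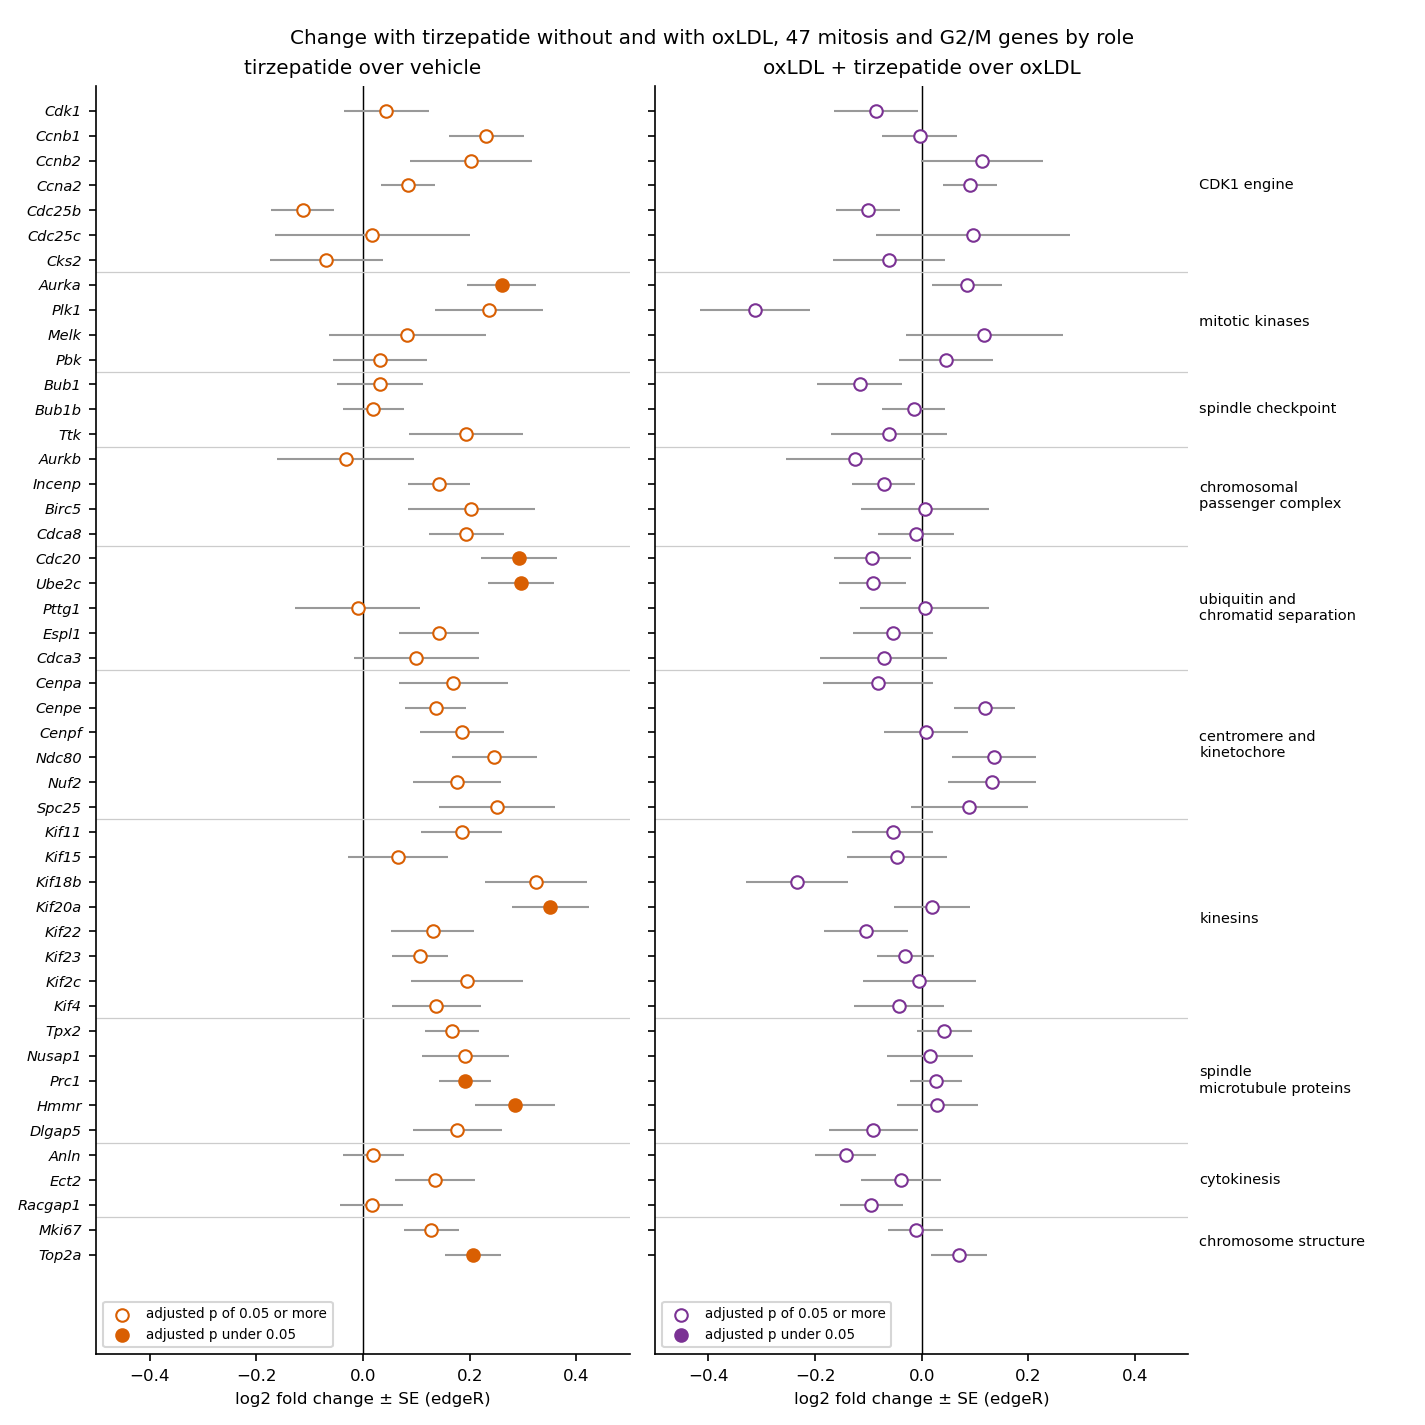
Log2 fold change (edgeR) of each of the 47 genes, grouped by role, with a standard error derived from the F statistic of its test. Tirzepatide over vehicle is on the left and oxLDL with tirzepatide over oxLDL on the right. Filled points passed an adjusted p of 0.05. On the left 43 of 47 points lie above 0 and 7 are filled, and on the right 19 lie above 0 and none of the 47 is filled.

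The genes that control passage through anaphase held 2 of the 7, out of 5. Ube2c had 116, 120.1, 105 and 128 TPM with tirzepatide, against 84.1, 98.5, 91.1 and 101 TPM with vehicle. Every tirzepatide library lay above every vehicle library, and the log2 change was 0.30 (SE 0.06, adjusted p = 0.00828 by edgeR). Cdc20, the activator of the anaphase-promoting complex, had 38.3, 40.3, 41.7 and 36.7 TPM with tirzepatide, against 27.8, 31.6, 35.9 and 30.4 TPM with vehicle. The groups did not overlap, although vehicle 3 came within 1 TPM of the lowest tirzepatide library, and the log2 change was 0.29 (SE 0.07, adjusted p = 0.0212 by edgeR). The other 3 did not pass: the protease separase, Espl1, had a log2 change of 0.14, Cdca3, which in frog and human cells promotes the destruction of the kinase Wee1, one of 0.10, and securin, Pttg1, which holds separase inactive, one of -0.01.

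Among the 8 kinesins 1 rose, and all 8 had a log2 change above 0. Kif20a, which carries the chromosomal passenger complex to the central spindle, had 22.8, 21.6, 22.1 and 22.1 TPM with tirzepatide, against 16.8, 17.9, 16.3 and 20.3 TPM with vehicle. The tirzepatide libraries lay close together and above all vehicle libraries, of which vehicle 4 was the highest, and the log2 change was 0.35 (SE 0.07, adjusted p = 0.00742 by edgeR). Kif18b, which shortens astral microtubules, had a change of similar size, 0.32 (SE 0.10), with 12.4, 13.9, 15.1 and 15.1 TPM under tirzepatide against 10.5, 10.7, 11.9 and 11.03 TPM under vehicle, but did not pass (adjusted p = 0.0531 by edgeR). The log2 changes of Kif11, the motor that separates the spindle poles, Kif2c, Kif4, Kif22, Kif23 and Kif15 lay between 0.07 and 0.19.

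Of the 5 spindle microtubule proteins 2 rose. Prc1, which bundles the microtubules of the central spindle, had 42.9, 40.7, 43.7 and 43.7 TPM with tirzepatide, against 35.2, 33.7, 39.3 and 38.5 TPM with vehicle. The groups did not overlap, and the log2 change was 0.19 (SE 0.05, adjusted p = 0.0281 by edgeR). Hmmr, a spindle-pole and hyaluronan-binding protein, had 22.8, 24.2, 25.4 and 19.99 TPM with tirzepatide, against 18.7, 18.9, 17.5 and 19.3 TPM with vehicle. Tirzepatide 4 was the lowest of its group and only just above vehicle 4, and the log2 change was 0.28 (SE 0.08, adjusted p = 0.0319 by edgeR). Tpx2, the activator of Aurora A on the spindle, had a log2 change of 0.17 that did not pass (adjusted p = 0.064 by edgeR), and Nusap1 and Dlgap5 had 0.19 and 0.18.

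Among the 4 mitotic kinases Aurka, Aurora A, rose. It had 38.2, 38.9, 40.1 and 41.6 TPM with tirzepatide, against 30.6, 32.7, 32.7 and 34.2 TPM with vehicle. The groups were well apart, and the log2 change was 0.26 (SE 0.07, adjusted p = 0.0238 by edgeR). Plk1, Polo-like kinase 1, had 18.1, 17.5, 20.3 and 21.5 TPM with tirzepatide, against 15.98, 15.4, 15.1 and 16.2 TPM with vehicle. These groups did not overlap either, but the log2 change of 0.24 (SE 0.10) did not pass (adjusted p = 0.202 by edgeR). Melk and Pbk had log2 changes of 0.08 and 0.03.

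Of the pair of chromosome structure genes, Top2a rose and Mki67 did not pass. Top2a had 63.2, 61.5, 65.9 and 56.2 TPM with tirzepatide, against 50.4, 54.5, 53.2 and 51.7 TPM with vehicle. Tirzepatide 4 was the lowest of its group and still above vehicle 2, the highest of its own, and the log2 change was 0.21 (SE 0.05, adjusted p = 0.027 by edgeR). Mki67, the Ki-67 protein used to mark dividing cells, had 41.5, 43.0, 44.4 and 40.0 TPM with tirzepatide, against 38.8, 38.5, 34.8 and 39.3 TPM with vehicle. The groups did not overlap, but the gap was under 1 TPM and the log2 change of 0.13 (SE 0.05) did not pass (adjusted p = 0.164 by edgeR).

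None of the 7 genes around CDK1 passed the test. Ccnb1, cyclin B1, came nearest, with 47.8, 47.7, 45.8 and 41.4 TPM under tirzepatide against 37.3, 38.4, 36.4 and 39.1 TPM under vehicle. These groups did not overlap, and the log2 change was 0.23 (SE 0.07, adjusted p = 0.0613 by edgeR). Cdk1 had 58.7, 73.9, 65.7 and 65.8 TPM with tirzepatide, against 62.5, 59.9, 67.6 and 50.9 TPM with vehicle. The Cdk1 groups overlapped broadly, and the log2 change, 0.04 (SE 0.08, adjusted p = 0.821 by edgeR), was -0.0259 without vehicle 4 and -0.0216 without tirzepatide 2. Ccnb2, a second cyclin B, had a log2 change of 0.20, and Ccna2, cyclin A2, one of 0.08. The phosphatases Cdc25b and Cdc25c had -0.11 and 0.02, and Cks2 had -0.07.

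The other roles held no gene that passed. The 6 centromere and kinetochore genes all had log2 changes above 0, from 0.14 for the kinetochore motor Cenpe to 0.25 for Ndc80 and Spc25, subunits of the complex that grips microtubules. Ndc80 had 18.1, 19.2, 18.3 and 17.9 TPM with tirzepatide, against 14.5, 15.5, 14.6 and 16.04 TPM with vehicle. Its groups did not overlap, and its adjusted p was 0.075 by edgeR. In the chromosomal passenger complex, the scaffold Incenp, survivin (Birc5) and borealin (Cdca8) had 0.14, 0.20 and 0.19, while the kinase Aurkb had -0.03. Of the 3 spindle checkpoint genes Ttk had 0.19, and Bub1 and Bub1b had 0.03 and 0.02. Of the 3 cytokinesis genes Ect2, which activates RhoA at the cleavage furrow, had 0.14, and Anln and Racgap1 had 0.02 each.

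**Figure D2:**
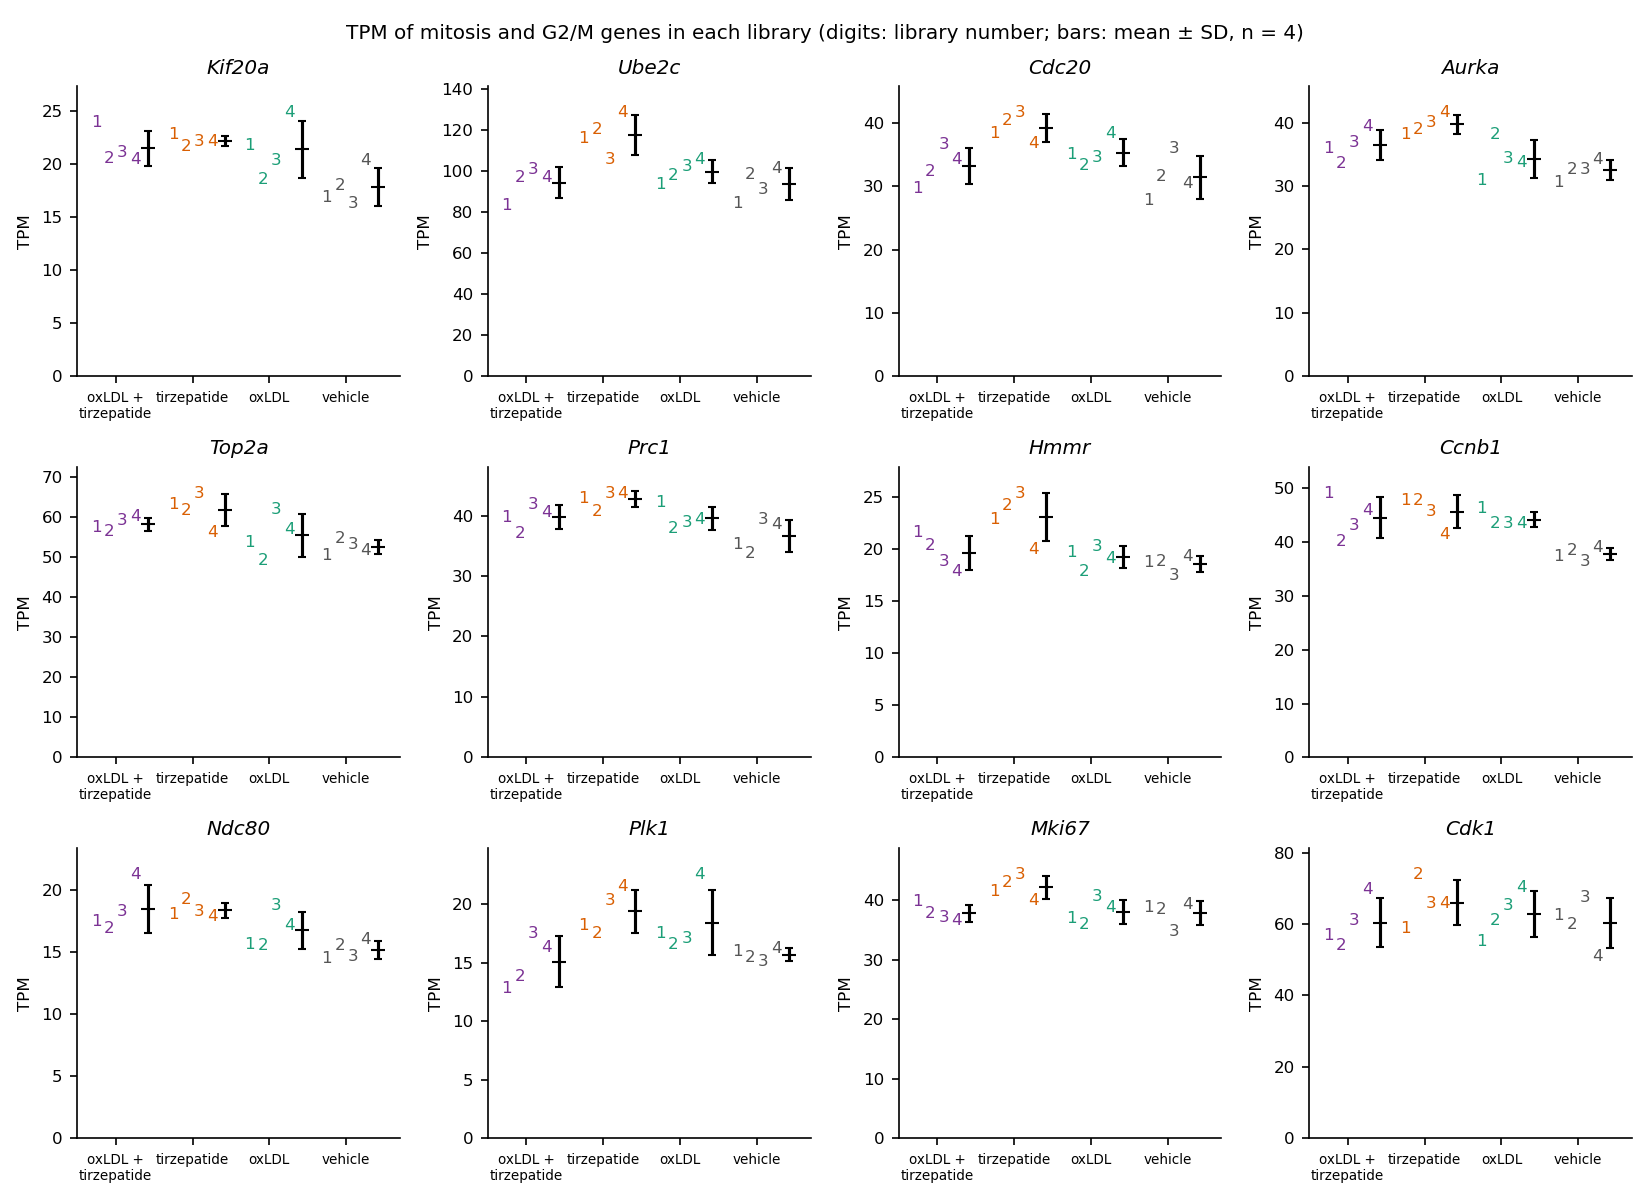
Level in TPM of 12 of the genes in each library, where each digit is the library number within its group and the bar is the mean ± SD of 4 libraries. For Ube2c the tirzepatide libraries sit at 105 to 128 TPM and the combination, oxLDL and vehicle libraries at 83.1 to 106 TPM, and for Cdk1 all 4 groups overlap.

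Tirzepatide in the presence of oxLDL was examined by comparing the combination with oxLDL alone. None of the 47 genes passed: 0 rose and 0 fell, the lowest adjusted p was 0.358 by edgeR, and 0.0353% of all genes tested were called. At an unadjusted p under 0.05 by edgeR 0 were higher and 3 lower, Plk1, Kif18b and Anln, where 5.15% and 4.97% of all genes were, and 0 passed with DESeq2 as well. The median log2 change was -0.02, with 19 of 47 above 0. The median difference in log2 CPM was -0.01 within libraries 1 and 2 and -0.06 within libraries 3 and 4. The groups did not overlap for 1 gene, the kinetochore gene Nuf2, which was higher at 0.13, where 3.08% of all genes lay wholly higher and 1.67% wholly lower. Ube2c had 83.1, 96.9, 100.5 and 96.9 TPM in the combination, against 93.2, 97.7, 102 and 106 TPM with oxLDL, and Cdc20 had 29.7, 32.4, 36.6 and 34.2 TPM against 35.0, 33.3, 34.6 and 38.4 TPM. These groups overlapped, and the log2 changes were -0.09 for both. Kif20a had 23.9, 20.5, 21.1 and 20.4 TPM in the combination, against 21.8, 18.6, 20.3 and 24.9 TPM with oxLDL. Its groups lay on top of each other, with a log2 change of 0.02. Plk1 had 12.8, 13.8, 17.4 and 16.3 TPM in the combination, against 17.5, 16.6, 17.1 and 22.5 TPM with oxLDL. The first pair of combination libraries was low and oxLDL 4 was high, and the log2 change was -0.31 (SE 0.10, adjusted p = 0.358 by edgeR). Anln, the anillin scaffold of the contractile ring, had a log2 change of -0.14.

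Whether the tirzepatide effect differed with and without oxLDL was tested by the interaction, the log2 change beside oxLDL minus the log2 change without it. None of the 47 genes passed at an adjusted p under 0.05 by edgeR, where 0.0707% of all genes were called, so a difference with oxLDL was not shown for any single gene. The lowest adjusted p was 0.0893, for Ube2c, at -0.39. Of the 47 genes 40 had a smaller log2 change beside oxLDL, with a median interaction of -0.16. At an unadjusted p under 0.05 by edgeR 12 were below 0 and 0 above it, where 5.55% and 4.77% of all genes were. The 12 included Kif18b (-0.56), Plk1 (-0.55), Cdc20 (-0.38) and Kif20a (-0.33). With DESeq2, or when lowly counted genes were kept, 2 of the 47 passed, both below 0, and with DESeq2 they were Ube2c and Kif18b. The interaction subtracts the tirzepatide change without oxLDL, which was above 0 for 43 of the 47 genes. Values below 0 therefore partly restate that change and are not separate evidence. The tirzepatide and vehicle libraries are not in the comparison of the combination with oxLDL. Across these separate libraries, 25 of the 47 genes were higher with tirzepatide than with vehicle and lower in the combination than with oxLDL, and 18 were higher in both.

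OxLDL alone was compared with vehicle in the same way. Here 1 of the 47 rose, Kif20a, and 0 fell, where 4.54% of all genes were called, 2.49% higher and 2.05% lower. The median log2 change was 0.04, with 33 above 0. The median difference in log2 CPM was -0.01 within libraries 1 and 2, with 23 above 0, and 0.12 within libraries 3 and 4, with 40 above 0, so the direction did not hold within both. Kif20a, with the library values given above for oxLDL and vehicle, was higher by 0.27 on the log2 scale (SE 0.07, adjusted p = 0.0301 by edgeR), although oxLDL 2 and oxLDL 3 lay below vehicle 4. By edgeR it did not pass without oxLDL 1 (adjusted p = 0.14), oxLDL 4 (0.0761), vehicle 1 (0.0677) or vehicle 3 (0.105), without vehicle libraries 1 and 2 (0.0977), or with the acinar share as a covariate (0.113). Ccnb1 had 46.2, 43.5, 43.4 and 43.5 TPM with oxLDL, against the 36.4 to 39.1 TPM of the vehicle libraries. Its groups did not overlap, with a log2 change of 0.23 that did not pass (adjusted p = 0.0605 by edgeR). The groups also did not overlap for Plk1, at 0.22, and Nusap1, a microtubule-binding protein, at 0.18, which makes 3 of 47 wholly higher and 0 wholly lower, where 4.86% and 3.42% of all genes were. Aurka, Top2a and Mki67 had log2 changes of 0.07, 0.07 and 0.00.

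The combination was also set against each of the remaining groups, and these comparisons reuse the libraries already described. Against tirzepatide alone 1 of the 47 genes fell, Ube2c, and 0 rose, where 1.54% of all genes were called, 0.777% lower and 0.76% higher. The Ube2c libraries of the combination, at most 100.5 TPM, lay below those of tirzepatide, at least 105 TPM. The difference was -0.30 on the log2 scale (SE 0.06, adjusted p = 0.0105 by edgeR). The call was lost without tirzepatide 4 (0.0539) or combination 1 (0.0608). Of the 47 genes 41 had a log2 change below 0 and the median was -0.11. The median difference in log2 CPM was -0.11 within libraries 1 and 2 and -0.12 within libraries 3 and 4. The combination lay wholly below tirzepatide for 11, among them Cdc20, Plk1, Kif18b and Mki67, and wholly above it for 0, where 4.39% and 2.17% of all genes did.

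Against vehicle 3 of the 47 genes rose in the combination and 0 fell, where 8.94% of all genes were called, 4.69% higher and 4.25% lower. The median log2 change was 0.03, with 30 above 0. The median difference in log2 CPM was -0.01 within libraries 1 and 2, with 22 above 0, and 0.07 within libraries 3 and 4, with 31 above 0, so here too it did not hold within both. Kif20a was higher by 0.29 on the log2 scale (SE 0.07, adjusted p = 0.0147 by edgeR). Ndc80 had 17.5, 16.9, 18.3 and 21.3 TPM in the combination, against 14.5, 15.5, 14.6 and 16.04 TPM with vehicle, 0.27 higher on the log2 scale (SE 0.08, adjusted p = 0.0334 by edgeR). Ccnb1 had 49.1, 40.1, 43.2 and 45.9 TPM in the combination, against 37.3, 38.4, 36.4 and 39.1 TPM with vehicle, 0.23 higher on the log2 scale (SE 0.07, adjusted p = 0.044 by edgeR). For all 3, and for Espl1 and Top2a, every combination library was above every vehicle library in TPM, which makes 5 wholly higher and 0 wholly lower, where 5.71% and 3.24% of all genes were. From counts, Top2a had a log2 change of 0.14 (adjusted p = 0.103 by edgeR) and Espl1 one of -0.01 (adjusted p = 0.957 by edgeR), so for Espl1 the TPM and the counts do not show the same difference. With 1 library left out in turn, Kif20a kept its call in 14 of 16 fits, Ndc80 in 11 and Ccnb1 in 4. The count was 0 without vehicle 3 or combination 1, 1 without vehicle 2, vehicle 4 or combination 4, 1 with the acinar share and 5 with the mitochondrial share, of which 2 were lower.

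Averaged over the groups with and without oxLDL, 8 libraries with tirzepatide against 8 without, 3 of the 47 genes rose and 0 fell, where 3.29% of all genes were called, 1.8% higher and 1.48% lower. They were Aurka at 0.17 (adjusted p = 0.0386), Top2a at 0.14 (0.0401) and Kif20a at 0.19 (0.0441), all by edgeR. Aurka had 35.9, 33.6, 36.9 and 39.4 TPM in the combination, against 30.8, 38.1, 34.4 and 33.8 TPM with oxLDL, and Top2a had 57.3, 56.3, 59.1 and 60.0 TPM against 53.7, 49.0, 61.8 and 57.0 TPM. Beside oxLDL these groups overlapped, with log2 changes of 0.09 for Aurka and 0.07 for Top2a, where they were 0.26 and 0.21 without oxLDL. The count of 3 was 0 without vehicle 2, vehicle 3, oxLDL 4, tirzepatide 1, 2 or 3, or combination 1 or 4, 1 without oxLDL 1, 2 or 3 or combination 3, 6 without vehicle 1, 1 with the acinar share and 9 with the mitochondrial share.

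**Figure D3:**
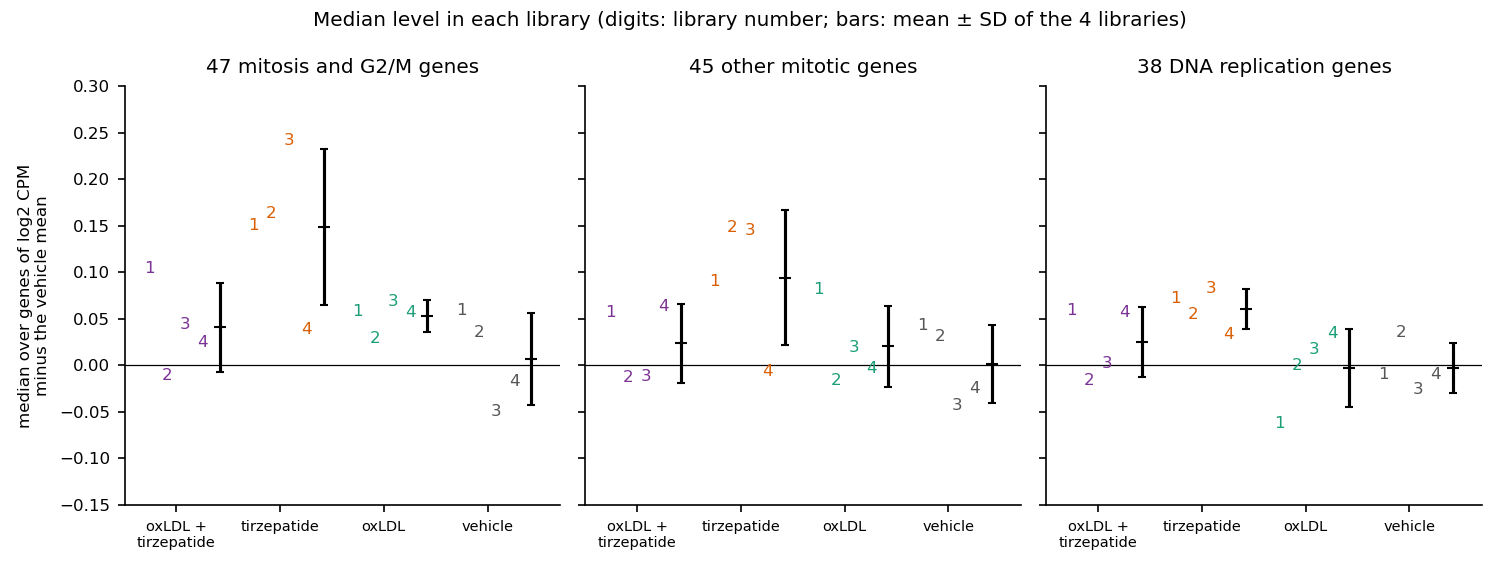
Median over the genes of log2 CPM (counts scaled for depth) minus the vehicle mean in each library, for the 47 genes, 45 other mitotic genes and 38 DNA replication genes, where digits are library numbers and bars are the mean ± SD of 4 libraries. Tirzepatide 1, 2 and 3 lie at 0.15, 0.16 and 0.24 for the 47 genes, above the other 13 libraries, while tirzepatide 4 lies at 0.04.

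The 47 genes did not move evenly within the tirzepatide group. The median over the genes of log2 CPM relative to the vehicle mean was 0.15, 0.16, 0.24 and 0.04 in tirzepatide libraries 1 to 4, against 0.06, 0.04, -0.05 and -0.02 in vehicle libraries 1 to 4. Tirzepatide 4 thus lay below vehicle 1 on this measure, while the other 3 lay above all vehicle libraries. It was 0.10, -0.01, 0.04 and 0.02 in combination libraries 1 to 4, against 0.06, 0.03, 0.07 and 0.06 in oxLDL libraries 1 to 4. In tirzepatide 3, 46 of the 47 genes were above their vehicle mean, in tirzepatide 1 and 2 there were 38 and 41, and in tirzepatide 4 there were 30. The other groups had 23 to 31 in the combination, 24 to 38 with oxLDL and 13 to 32 with vehicle. OxLDL 4 thus equalled tirzepatide 1, and vehicle 2 lay above tirzepatide 4. Aurka, Ube2c and Plk1 were highest in tirzepatide 4, whereas Top2a, Hmmr, Ccnb1 and Mki67 were lowest there among the tirzepatide libraries.

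Other cell cycle genes were read from lists of the same pathways. For tirzepatide against vehicle 2.34% of all genes tested were called higher and 1.74% lower. Of 45 other mitotic genes 0 passed for tirzepatide against vehicle, with 37 above 0 and a median log2 change of 0.09. Of 16 genes of the anaphase-promoting complex and its inhibitors 0 passed, with a median of 0.01. Of 38 DNA replication genes 3 rose and 0 fell, with a median of 0.05: Rrm2, a subunit of ribonucleotide reductase, at 0.19 (adjusted p = 0.0241), and the replicative helicase subunits Mcm7 at 0.22 (0.0388) and Mcm2 at 0.15 (0.0457), all by edgeR. With 1 library left out in turn, Rrm2 kept its call in 11 of 16 fits, Mcm7 in 5 and Mcm2 in 2. Of 12 tested CDK inhibitors and G1 cyclins 0 passed, with a median of -0.09, and Ccnd1, cyclin D1, had -0.07 (adjusted p = 0.522 by edgeR). The lists are not of equal expression or depth, and no difference between them was tested.

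With tirzepatide against vehicle 2.34% of all genes tested were called higher. Of 20 regulators of G2/M transcription 1 rose in this comparison, with a median of 0.00. This was E2f8, an atypical E2F repressor, with 7.99 ± 0.728 TPM with tirzepatide and 6.10 ± 0.360 TPM with vehicle (SD, n = 4 each) which is 0.35 on the log2 scale (SE 0.10, adjusted p = 0.0479 by edgeR), a call kept in 2 of 16 fits with 1 library left out. Foxm1 had 13.9, 13.3, 14.1 and 15.2 TPM with tirzepatide, against 11.5, 12.3, 13.1 and 12.2 TPM with vehicle. Its groups did not overlap, but the log2 change of 0.16 did not pass (adjusted p = 0.215 by edgeR). Mybl2, which encodes B-MYB, had a log2 change of 0.02 (adjusted p = 0.927 by edgeR), whose sign changed under some alternatives.

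With tirzepatide against vehicle 1.74% of all genes tested were called lower and 2.34% higher. Of 11 brakes on entry into mitosis 1 fell in this comparison and 0 rose, with a median of -0.05. This was Wee1, the kinase that holds CDK1 inactive, with 9.63, 10.7, 8.94 and 7.78 TPM with tirzepatide, against 9.96, 11.4, 12.1 and 12.3 TPM with vehicle. Tirzepatide 2 lay above vehicle 1, and the log2 change was -0.33 (SE 0.09, adjusted p = 0.0362 by edgeR), a call kept in 10 of 16 fits with 1 library left out. Wee1 was also lower in the combination than with vehicle, at -0.32 (adjusted p = 0.0274 by edgeR), and in the average with and without oxLDL, at -0.23 (0.0459 by edgeR), calls kept in 11 and in 2 of 16 such fits. For the combination against vehicle 2 of the 11 brakes fell, Wee1 among them, and 1 rose, Chek1. Of all genes 4.25% were called lower and 4.69% higher. With 1 library left out Chek1 lay at 0.29 to 0.39 on the log2 scale and kept its call in 10 of 16 fits. Cdkn1a, the CDK inhibitor p21, had log2 changes of 0.05 with tirzepatide (adjusted p = 0.68 by edgeR) and 0.16 with oxLDL (adjusted p = 0.0788 by edgeR), each against vehicle. Gadd45a, a stress protein that inhibits CDK1, fell with oxLDL against vehicle, to 74.1 ± 3.75 TPM with oxLDL, against 98.2 ± 2.46 TPM with vehicle (SD, n = 4 each), a log2 change of -0.42 (adjusted p = 0.000561 by edgeR). It was likewise lower in the combination than with tirzepatide alone, at -0.41 (adjusted p = 0.00234 by edgeR).

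OxLDL against vehicle gave further calls in these lists. Of the 45 other mitotic genes 1 rose and 0 fell, where 2.49% and 2.05% of all genes did. Nek2, a centrosome kinase among the other mitotic genes, rose to 12.3 ± 1.07 TPM with oxLDL, against 9.71 ± 0.665 TPM with vehicle (SD, n = 4 each), a log2 change of 0.34 (adjusted p = 0.0185 by edgeR). Of the 38 replication genes 2 rose and 0 fell, where 2.49% and 2.05% of all genes did. Mcm2 was among them, higher by 0.18 on the log2 scale. With 1 library left out in turn Nek2 kept its call in 13 of 16 fits, Mcm2 in 15, and Gadd45a and Cdk6 in all 16. Over all 29 alternatives the call against vehicle was lost in 6 for Nek2, 4 for Mcm2, 1 for Cdk6 and 0 for Gadd45a. Cdk6, a kinase of the G1 phase, fell with oxLDL, with a log2 change of -0.36 (adjusted p = 0.000398 by edgeR), and was lower in the combination than with tirzepatide, at -0.28 (adjusted p = 0.0125 by edgeR). The second call was kept in 12 of 16 fits with 1 library left out (highest adjusted p = 0.0787 by edgeR) and was lost with limma on log2(TPM + 1), at -0.10 (adjusted p = 0.814).

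**Figure D4:**
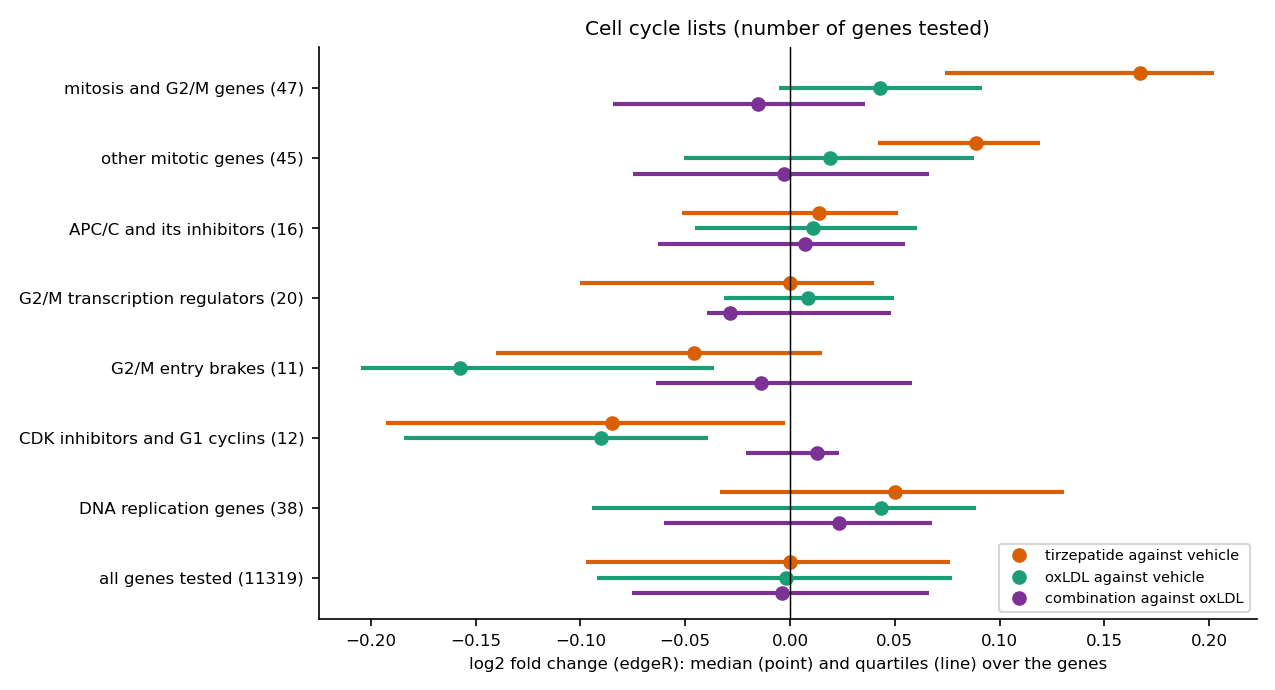
Median (point) and quartiles (line) over the genes of each list of the log2 fold change by edgeR, for tirzepatide against vehicle, oxLDL against vehicle and the combination against oxLDL. The 47 mitosis and G2/M genes lie at a median of 0.17 for tirzepatide against vehicle and -0.02 for the combination against oxLDL, and the 11319 genes tested lie at -0.0001 and -0.0036.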

How the data were processed

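RNA from 16 libraries of RAW264.7 cells, 4 in each of 4 groups, was sequenced on an Illumina instrument after enrichment of mRNA, per the labels' protocols. Per the submitters' processing notes the tools included RSEM, StringTie 1.3.1, Bowtie2 2.2.8 and fastp 0.18.0, with the builds GRCm39 and mm39. The annotation release is not given in the sources used here. For each gene in each library the authors deposited an expected count, estimated by RSEM and unscaled between libraries, of which 6.80% were not whole, and a TPM. TPM depends on an effective length estimated in each library. TPM and counts changed by different amounts for some genes, and over all genes TPM leaned higher with tirzepatide where counts did not. The cause was not tested.

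The rounded expected counts entered edgeR 4.0.16 under R 4.3.3, using filterByExpr at a minimum count of 10 (11319 genes kept), TMM normalization, and quasi-likelihood tests of 7 contrasts in 1 fit of the 16 libraries. Adjusted p-values are Benjamini-Hochberg over all genes tested, with calls under 0.05 and no fold threshold. The edgeR test gives no standard error, so each SE is the absolute log2 change divided by the square root of the F statistic. TPM was used for levels and overlap, and log2 CPM with a prior count of 2 for medians per library. The biological coefficient of variation was 0.0633. The fit was also run on simulated counts with known changes, drawn from its own estimates of level and spread, and the outcome is not given here. These counts held no differences in mitochondrial or acinar share, so that run does not bear on the shifts between alternatives.

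The members and lists were chosen with earlier results of these data known. Values in every tirzepatide and vehicle library are given for members called in any contrast and for Mki67, Top2a, Ccnb1, Cdk1, Plk1 and Aurka. Kif18b was added after its values were seen. Values in the oxLDL or combination libraries are printed for some of these genes and not for all. Outside the members, Foxm1, Mybl2, Cdkn1a, Ccnd1 and Wee1 are given in any case, with up to 3 called genes of each list, not all of which are printed. Alternatives were DESeq2 1.42.0, DESeq2 size factors, quantile normalization with limma 3.58.1, a replicate block, a fit of the compared groups alone, no filter, filters of 10 counts or of 5 TPM in at least 4 libraries, both vehicle libraries with acinar messages left out, the mitochondrial or acinar share as a covariate, and each library left out in turn. Limma on log2(TPM + 1), and a term for libraries 1 and 2 against libraries 3 and 4 of each group, were added after the data were seen. Promoters came from RefSeq, build GRCm38.p6, which differs from the authors' build. Motifs were searched in the 250 bases before the start and the 50 bases after it were not used.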

Additional observations from a re-analysis of the deposited data

Results flagged for a closer look

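Of 56 tests for a library far from the other 3 of its group, 2 found one, and chance gives about 1 in 20. Ccnb1 had 46.238 TPM in oxLDL 1, where the other oxLDL libraries had 43.421 to 43.534 TPM. The distance was small beside the difference from vehicle, whose libraries had 36.4 to 39.1 TPM. Plk1 had 22.521 TPM in oxLDL 4, where the other oxLDL libraries had 16.568 to 17.473 TPM. Leaving out any 1 library put the log2 change of Plk1 in the combination against oxLDL between -0.39 and -0.20.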

How the results depend on the processing

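The count of the 47 genes called was 7 for tirzepatide against vehicle as reported. It was 4 with only the groups compared in the fit, with quantile normalization or with limma on log2(TPM + 1), 2 without vehicle libraries 1 and 2, 3 with the acinar share and 13 with the mitochondrial share in the model, and 2 to 10 with 1 library left out. Ube2c was called in all 29 alternatives (adjusted p from 0.00103 to 0.0439), and Kif20a in 28 of 29, the exception being limma on log2(TPM + 1) (0.0742). Cdc20, Aurka, Top2a, Prc1 and Hmmr each lost the call in 7 to 11 alternatives and kept their direction in all 29. The median of the 47 genes stayed between 0.12 and 0.20. For oxLDL against vehicle the count of 1 was 2 with the replicate block, only the groups compared, no filter, DESeq2 or the mitochondrial share, 0 without vehicle libraries 1 and 2, with the acinar share or with limma on log2(TPM + 1), and 0 to 2 with 1 library left out. The count of 0 for the combination against oxLDL was 0 in all 29. For the combination against tirzepatide the count of 1 was 2 with the replicate block, 3 with the mitochondrial share, 0 with limma on log2(TPM + 1) and 0 to 1 with 1 library left out. For the combination against vehicle the count of 3 was 0 with only the groups compared, 5 with the mitochondrial share, 1 with the acinar share or limma on log2(TPM + 1), and 0 to 4 with 1 library left out. For the average with and without oxLDL the count of 3 was 5 with the replicate block, 9 with the mitochondrial share, 1 with the acinar share, 0 with limma on log2(TPM + 1) and 0 to 6 with 1 library left out. For the interaction the count of 0 was 1 with the replicate block, 2 without a filter or with DESeq2, and 0 with any 1 library left out. The cause of these shifts was not tested. Cdk1 for tirzepatide against vehicle, 0.04 as reported, turned to -0.0259 without vehicle 4 and -0.0216 without tirzepatide 2, with 0.0818 at the other end of the fits without 1 library. Mybl2, 0.02 as reported, turned to -0.027 without vehicle 2, -0.0197 without tirzepatide 4 (highest without 1 library 0.0541), -0.0117 with the mitochondrial share and -0.083 with limma on log2(TPM + 1). Over 24 same-numbered pairs of libraries the correlation of deviations from the group means was -0.127 to 0.189, with a median of 0.018, which did not show a pairing by number. It does not bear on the split between libraries 1 and 2 and libraries 3 and 4, which was seen in the data and is not in the labels: the mitochondrial share was 8.67% to 11.2% in libraries 1 and 2 and 7.69% to 8.39% in libraries 3 and 4, without overlap within any group, and the median correlation of deviations was 0.055 over pairs with other numbers on the same side of the split and -0.034 across it. With this split as a term, added after seeing the data, the count was 10 for tirzepatide against vehicle, the 7 reported and the 3 genes the block adds, 2 for oxLDL against vehicle, 0 for the combination against oxLDL, 2 for the combination against tirzepatide, 4 for the combination against vehicle, of which 1 was lower, 4 for the average and 0 for the interaction. With the replicate block 10 of the 47 genes were called for tirzepatide against vehicle, the 7 reported and Ccnb1, Kif18b and Tpx2. The average and the interaction have no value with only the groups compared. At 4 libraries a group and changes of about 1.2-fold, a gene that did not pass is not shown to be unchanged.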
